A study of Mus musculus with 4 samples.

Results

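Markers of white and brown fat were followed in RNA of whole mouse adrenal glands, an organ that lies in fat and is freed from it by dissection. The 10 genes are Adipoq, Fabp4, Plin1, Cidec, Cfd, Ucp1, Cidea, Lpl, Car3 and Slc2a4. They were chosen as fat markers with earlier results of these data known, so counts set beside all probe sets are descriptions only. Every probe set annotated to exactly 1 of these genes was used. This gave 16 probe sets of 8 genes, out of 45037 probe sets on the array. Plin1 and Cfd had no probe set assigned to them alone in the annotation used here, so they were not analysed. All arrays were made from adrenal RNA of male mice aged 2 months. One group is wild type (2 arrays) and the other lacks the V1a vasopressin receptor, labelled V1a KO (2 arrays). The strain, the deleted part of the receptor gene and the number of glands behind an array are not stated in the sources used here. Nothing in the labels says that arrays came from separate animals, so p-values here reflect only the variation among these 4 samples, possibly technical.

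White fat cells store triglyceride in 1 large droplet and release fatty acids and hormones, while brown fat cells hold many small droplets and burn fatty acids for heat in mitochondria that carry the uncoupling protein Ucp1. Both kinds of fat cell surround the adrenal gland and the kidney of the mouse. Adipoq encodes the hormone adiponectin, Fabp4 a carrier of fatty acids, and Cidec a protein that helps lipid droplets grow. Lpl splits triglyceride from the blood, Slc2a4 is the glucose transporter that insulin moves to the cell surface, and Car3 is a carbonic anhydrase abundant in fat and muscle. Cidea is a droplet protein abundant in brown fat. In RNA of a whole gland, fewer cells of a type and less RNA per cell cannot be told apart.

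The values are log2 expression units per probe set with a shared floor of 2.30, close to which differences are compressed. A probe set entered the test if it reached 4 units on at least 2 of the 4 arrays, which left 17228 probe sets, 12 of them of fat markers. The 9 adrenal cortex genes measured were all read, with a log2 summed level of 16.66 to 16.80 on the arrays, and so were the 9 genes of the medulla at 15.51 to 16.09. Wild-type array 1 stood apart, with a correlation across tested probe sets of 0.919 to 0.924 with the others, which correlated with each other at 0.974 to 0.986. The 2 probe sets of Avpr1a, the gene of the receptor, read 2.31 to 2.60 everywhere, which checks no genotype label.

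In Adipoq, Cidec, Fabp4, Lpl and Car3 the knockout arrays differed from each other by more than the genotype means did, and in Ucp1, Cidea and Slc2a4 by less. The share of all tested probe sets with a larger difference within the knockout was not computed. Knockout array 1 gave the lowest value for the brightest probe set of all 8 genes, and knockout array 2 the highest for 5 of them. Ucp1 and Cidea, the brown fat markers, varied over a far wider range than the others and were highest on wild-type array 1. None of the tested fat marker probe sets separated the genotypes at an adjusted p of 0.05 in limma.

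**Figure D1:**
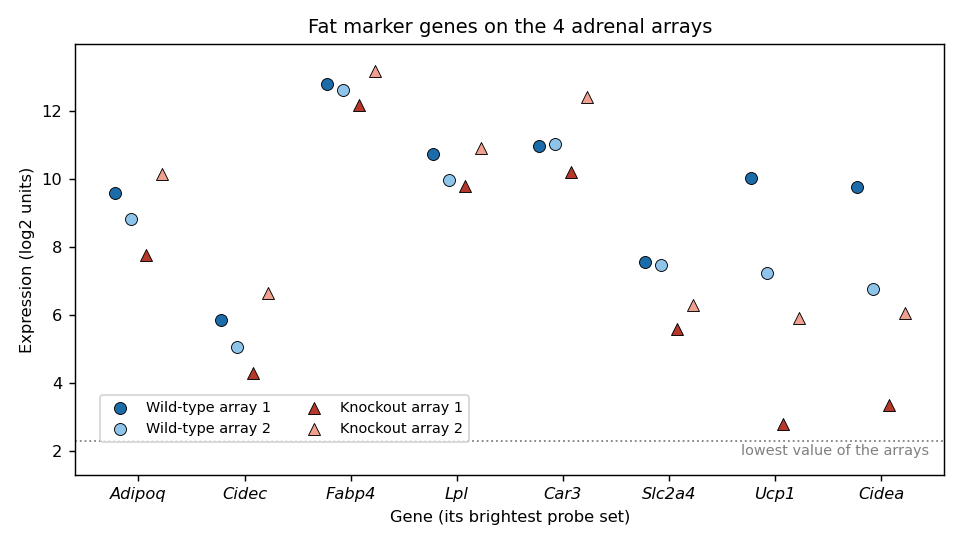
Log2 expression of the 8 fat marker genes, each by its brightest probe set, on the 2 wild-type arrays (circles) and the 2 knockout arrays (triangles), with the lowest value of the arrays as a dotted line. The darker triangle, knockout array 1, is the lowest point of every gene, and Ucp1 spans 2.80 to 10.05.

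Adipoq, the hormone gene most specific to fat cells, read 9.60 and 8.84 on the wild-type arrays, against 7.76 and 10.16 on the knockout arrays. The knockout arrays thus held both the lowest and the highest value, 2.39 log2 units or 5.25-fold apart, and the genotypes overlapped. Wild type averaged 9.22 ± 0.54 (SD, n = 2) and the knockout 8.96 ± 1.69, which differ by -0.26 (SE 0.93) with an adjusted p of 0.950 in limma. Cidec read 5.85 and 5.05 in wild type against 4.28 and 6.65 in the knockout. Its knockout arrays lay 2.37 units apart, its genotypes overlapped, and its genotype difference was 0.02 (SE 0.93).

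Promoter windows are shown for these genes and for Ucp1, because they are the measured markers with an entry in the RefSeq promoter table (GRCm38.p6) and Adipoq and Ucp1 differed in their order of arrays. Each line gives the 250 bases before a transcription start, 5′ to 3′ on the gene's strand, with capitals for matches to any of 6 short motifs. The motifs, searched on both strands, were the TATA box TATAAA, the CCAAT box in its plain form CCAAT, the nuclear receptor element AGGTCA, the C/EBP-type site TTGCNNAA, the cAMP response element TGACGTCA and the E box CACGTG. No motif of these contains another. Cidec has 2 annotated starts.
Adipoq, chr16:23146286-23146535, plus strand: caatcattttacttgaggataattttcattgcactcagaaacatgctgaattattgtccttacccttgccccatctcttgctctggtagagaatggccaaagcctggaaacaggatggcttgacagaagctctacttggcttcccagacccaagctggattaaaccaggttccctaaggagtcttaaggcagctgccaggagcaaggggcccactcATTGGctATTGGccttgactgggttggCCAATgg
Cidec, distal start, chr6:113435761-113436010, minus strand: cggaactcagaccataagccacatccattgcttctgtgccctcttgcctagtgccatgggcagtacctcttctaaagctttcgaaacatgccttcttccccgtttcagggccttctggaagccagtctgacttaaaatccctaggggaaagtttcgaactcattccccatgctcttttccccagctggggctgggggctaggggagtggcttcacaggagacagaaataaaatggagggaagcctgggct
Cidec, proximal start, chr6:113434765-113435014, minus strand: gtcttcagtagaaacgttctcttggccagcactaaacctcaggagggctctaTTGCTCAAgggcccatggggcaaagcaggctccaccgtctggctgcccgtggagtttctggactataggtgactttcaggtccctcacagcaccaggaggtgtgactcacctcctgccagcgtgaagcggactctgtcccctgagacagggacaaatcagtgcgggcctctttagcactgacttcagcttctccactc
Ucp1, chr8:83290098-83290347, plus strand: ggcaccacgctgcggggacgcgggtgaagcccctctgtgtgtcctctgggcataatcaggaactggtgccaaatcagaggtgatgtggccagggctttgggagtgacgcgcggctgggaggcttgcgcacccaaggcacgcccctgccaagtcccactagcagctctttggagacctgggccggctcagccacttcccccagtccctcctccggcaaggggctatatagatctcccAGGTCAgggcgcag

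The Adipoq window held CCAAT 3 times, beginning 34, 27 and 7 bases before the start, a motif present in 33.8% of all 32851 windows of this length. The Ucp1 window held AGGTCA at 14 bases before the start, as did 14.0% of all windows. The proximal Cidec window held TTGCNNAA at 198 bases before the start, present in 9.56% of all windows, and the distal one held no match. The TATA box, the cAMP response element and the E box, present in 12.4%, 1.55% and 6.02% of all windows, were not matched in these 4. The windows of Adipoq and Cidec, the marker nearest to Adipoq in its levels across the arrays, shared no match. Matches are descriptions of the letters only.

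The carriers and enzymes of fatty acid supply were bright on every array. Fabp4 read 12.81 and 12.62 in wild type against 12.19 and 13.18 in the knockout on its brightest probe set, so its knockout arrays were 1.98-fold apart on either side of the wild-type ones. Another Fabp4 probe set read 10.86 and 12.13 in wild type against 11.68 and 12.55 in the knockout, with wild-type array 1 the lowest. The 2 bright probe sets of Fabp4 thus disagreed on that array. Of the remaining ones, 1 read 2.44 to 3.51 and 1 read 2.30 throughout, and neither was tested.

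Lpl read 10.75 and 9.98 in wild type against 9.80 and 10.92 in the knockout, and 8.37, 7.09, 7.13 and 8.31 on its second probe set in the same order. In both, wild-type array 1 and knockout array 2 were high and the other pair of arrays low, so that the genotype means were within 0.01 of each other, with SEs of 0.52 and 0.66. Fabp4 and Lpl are also made by cells other than fat cells, including capillary endothelium and macrophages. Of 10 endothelial markers, 0 were 2-fold higher on knockout array 2 than on knockout array 1. Of 10 macrophage markers 2 were, beside 0.981% of all tested probe sets. On knockout arrays 1 and 2 the log2 summed level was 11.83 and 11.60 for the endothelial markers. It was 11.67 and 12.16 for the macrophage ones. The part of endothelium or macrophages in the Fabp4 and Lpl readings was not tested.

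Car3 read 10.99 and 11.02 in wild type against 10.21 and 12.43 in the knockout on its brightest probe set. Here the wild-type arrays lay 0.03 apart and the knockout arrays 2.21 apart, on either side of them. Its other tested probe set read 6.99, 4.87, 4.38 and 6.59 on the same arrays, again 2.21 apart in the knockout but with wild-type array 1 on top. The 2 untested ones read 2.30 to 2.74 on 3 arrays and 4.60 and 4.19 on knockout array 2. Each of the 4 probe sets of Car3 was higher on knockout array 2 than on knockout array 1, by 1.79 to 2.22 units. Skeletal muscle also makes Car3 and Slc2a4. All 10 muscle markers measured, Ckm and Myh4 among them, lay below 4 on every array, and the part of muscle in the Car3 and Slc2a4 readings was not tested.

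Slc2a4 had the smallest unadjusted p of the fat markers between genotypes, though it did not pass the adjusted threshold. It read 7.56 and 7.48 in wild type against 5.61 and 6.31 in the knockout, with no overlap. The means were 7.52 ± 0.05 (SD, n = 2) and 5.96 ± 0.50, a difference of -1.56 (SE 0.30), or 0.339 of the wild-type level, with an unadjusted p of 0.00801 and an adjusted p of 0.794 in limma. Its second probe set read 5.67 and 4.52 against 3.69 and 4.0, a difference of -1.25 (SE 0.46, unadjusted p = 0.0589 in limma), also without overlap. Without wild-type array 1 the difference on the brighter probe set was -1.53, and no fat marker probe set reached an unadjusted p of 0.05.

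Ucp1, which makes brown fat mitochondria leak protons, read 10.05 and 7.24 on the wild-type arrays, against 2.80 and 5.91 on the knockout arrays. Every array thus differed from the next by more than a unit, knockout array 1 was near the lowest value of the arrays, and the genotypes did not overlap. The means were 8.65 ± 1.99 (SD, n = 2) and 4.35 ± 2.20, a difference of -4.29 (SE 1.54), with an unadjusted p of 0.0535 and an adjusted p of 0.794 in limma. Because knockout array 1 lies near the floor, this difference is compressed. Cidea read 9.78 and 6.78 in wild type against 3.37 and 6.06 in the knockout, the same order of arrays as Ucp1. Its difference was -3.57 (SE 1.48, unadjusted p = 0.0784 in limma), again without overlap, while its wild-type arrays alone lay 3.0 units apart.

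Leaving out wild-type array 1 reduced the Ucp1 difference to -2.89 and that of Cidea to -2.07. Liver transcripts also read high on that array. Of 8 liver markers, 6 were at least 2-fold higher on wild-type array 1 than on wild-type array 2. The 1 liver marker that entered the test, Serpina1b, was not among the 6. Of all tested probe sets, 6.98% were 2-fold higher on that array. The test filter required 4 units on at least 2 arrays, so that share does not cover the 6. The log2 summed level of the 8 was 10.58 and 7.58 on wild-type arrays 1 and 2, against 5.75 and 5.73 on knockout arrays 1 and 2. All 8 probe sets at the floor would give 5.30. Alb, the albumin gene, was at 8.86 on that array and at 2.42 to 2.43 elsewhere, and Ttr, the transthyretin gene, 8.95 and 2.30 to 2.88. Serpina1b, by contrast, was read on both wild-type arrays, at 7.97 and 7.20, and lay at 2.30 on both knockout arrays. The part of liver transcripts in the Ucp1 and Cidea readings was not tested.

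**Figure D2:**
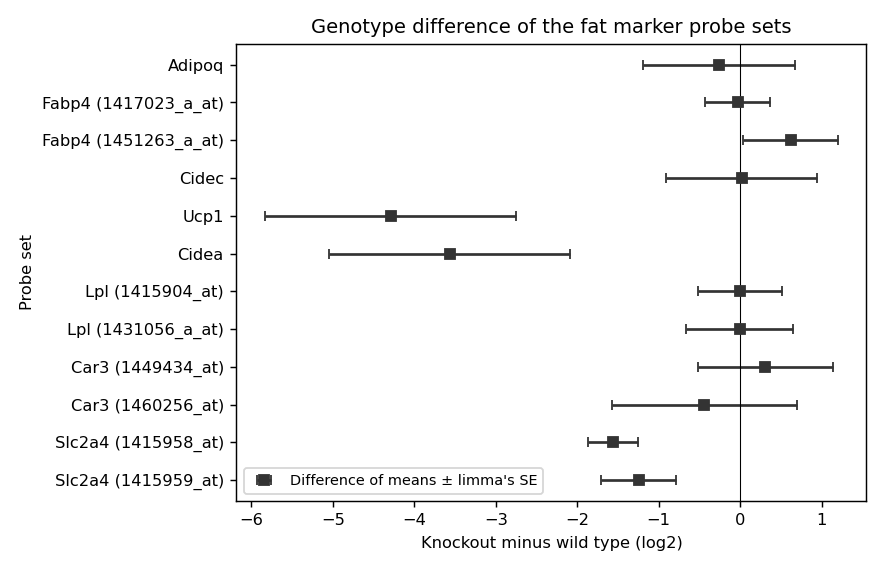
Knockout minus wild-type difference of mean log2 expression (squares) with limma's standard error (bars) for the 12 tested fat marker probe sets, 2 arrays per genotype. Ucp1, Cidea and both probe sets of Slc2a4 lie at -1.25 or lower, and the other bars are near or across 0.

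Across the 12 tested probe sets, 0 passed an adjusted p of 0.05 in limma, as did 0 of all 17228, a background of 0%. At an unadjusted p of 0.05, 1 of 12 passed, Slc2a4 and lower in the knockout, where 5.14% of all tested probe sets passed in either direction and 3.01% as lower. The genotype means of 4 of 12 were at least 2-fold apart, all lower in the knockout, where the background was 5.29% in either direction and 1.5% for lower. These 4 belong to Ucp1, Cidea and Slc2a4, and the same 4 had both knockout arrays below both wild-type ones, which held for 20.0% of all tested probe sets. Over the 8 genes, 3 were at least 2-fold apart, and the median difference was -0.14 beside -0.04 for all tested probe sets. That median was 0.51 without knockout array 1 and -1.31 without knockout array 2, and 5 genes were 2-fold apart in each case. The added genes were Cidec and Car3, higher, without knockout array 1, and Adipoq and Cidec, lower, without knockout array 2. For 2 arrays against 2, an exact permutation test of 1 gene cannot give a two-sided p below 0.333.

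Most fat markers also differed within the knockout. Of the 12 tested probe sets, 8 were at least 2-fold higher on knockout array 2 than on knockout array 1, compared with 0.981% of all tested probe sets. They belonged to Adipoq, Cidec, Ucp1, Cidea, Lpl (2 probe sets) and Car3 (2 probe sets). Ucp1, 8.63-fold apart, had the largest such difference of all 17228 probe sets, Cidea at 6.44-fold ranked 7, Adipoq 14 and Cidec 15. Slc2a4, at 1.63-fold, ranked 398. The median over the 8 genes was 2.29 log2 units, while that over all tested probe sets was 0.00. With 1 array against 1, these are differences between arrays without a test. Markers of the adrenal medulla, all but Penk, were lower on knockout array 2 than on knockout array 1, with a median of -0.54 over 9 genes and a log2 summed level of 16.05 on knockout array 1 and 15.51 on knockout array 2. Pnmt, which makes adrenaline, read 11.88 and 10.40 on them, and Dbh, which makes noradrenaline, 12.02 and 10.96 (differences of -1.48 and -1.05). The cortex markers had a median of -0.05 between the same arrays. Between the wild-type arrays (array 2 minus array 1) the medulla median was -0.61, and that of the fat markers -0.76. The log2 summed level of the medulla was 16.09 on wild-type array 1 and 15.53 on wild-type array 2. The part of the medulla in the fat marker readings was not tested.

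Within the wild type the fat markers were split. At least 2-fold higher on wild-type array 1 than on wild-type array 2 were 5 of the 12 probe sets, compared with 6.98% of all. They were those of Ucp1 and Cidea and the dimmer tested probe sets of Lpl, Car3 and Slc2a4. By the brightest probe set, 2 of 8 genes met this. The dimmer tested probe set of Fabp4 went the other way, by 1.26 (array 2 minus array 1). Ucp1 and Cidea lay 2.81 and 3.0 units apart there, Adipoq and Cidec 0.76 and 0.80, and the brightest probe sets of Car3, Slc2a4 and Fabp4 less than 0.20. The median over the 8 genes was -0.76 (array 2 minus array 1) beside -0.16 for all tested probe sets.

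**Figure D3:**
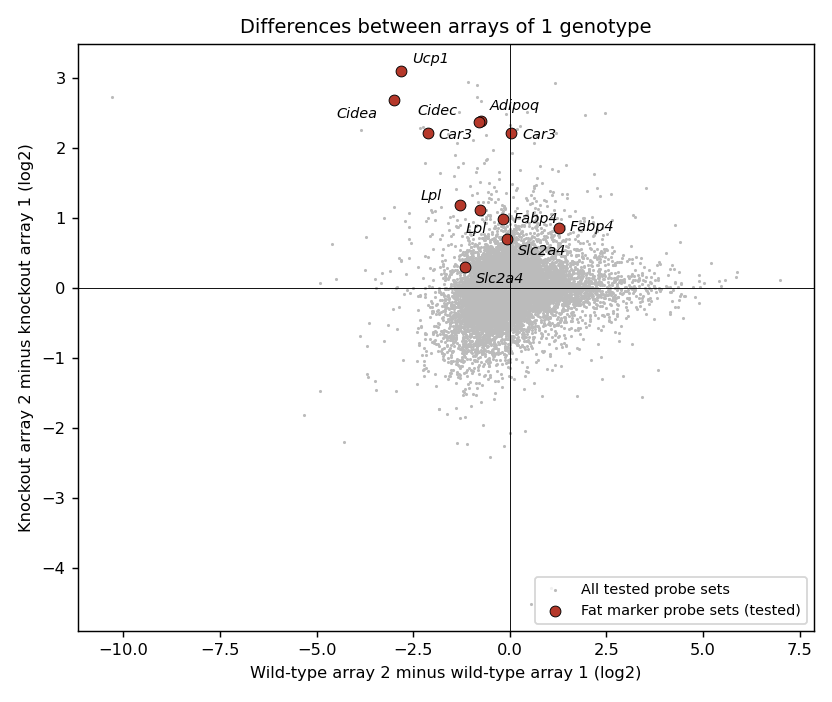
Difference between the wild-type arrays (x axis, array 2 minus array 1, log2) and between the knockout arrays (y axis, array 2 minus array 1, log2) for all 17228 tested probe sets (grey) and the 12 fat marker probe sets (red). All 12 lie above 0 on the y axis, with Ucp1 the highest point of the plot at 3.11.

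On most of the tested fat marker probe sets the arrays fell into 2 recurring orders. Adipoq, Fabp4, Cidec and Lpl on their brightest probe sets ran from knockout array 2 through wild-type array 1 and wild-type array 2 down to knockout array 1, an order held by 4 of the 12 fat marker probe sets and 1.78% of all tested ones. Car3 on its brightest probe set differed from it only by the order of its wild-type arrays, which lay 0.03 apart. Ucp1, Cidea and both probe sets of Slc2a4 ran from wild-type array 1 through wild-type array 2 and knockout array 2 to knockout array 1, the order of 9.26% of all tested probe sets. The dimmer tested probe sets of Fabp4, Lpl and Car3 held neither order. Knockout array 1 was the lowest for 10 of the 12 fat marker probe sets and for 23.2% of all. From wild-type array 1 to knockout array 2, Adipoq, Cidec, Fabp4, Lpl and Car3 differed by 0.56, 0.80, 0.37, 0.17 and 1.43, whereas Ucp1, Cidea and Slc2a4 differed by -4.14, -3.72 and -1.24.

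To find genes with a like pattern, each gene's values were centred on their mean over the 4 arrays and compared with Adipoq or Ucp1 by the root mean square difference in log2 units, over 2321 other genes with a range of at least 1 unit. Among the markers, Cidec lay 0.14 from Adipoq, nearer than any of those other genes, followed by Car3 at 0.40, Lpl at 0.47 and Fabp4 at 0.55. Slc2a4, Cidea and Ucp1 were at 0.92, 1.84 and 2.16. Of those other genes, 6, 17 and 42 lay nearer to Adipoq than Car3, Lpl and Fabp4 did. For Slc2a4, Cidea and Ucp1 these counts were 595, 2263 and 2307. The markers were compared whatever their range, and that of Fabp4 was 0.99. The nearest other gene was Aoc3, an amine oxidase of fat and smooth muscle cells, at 0.16, which read 5.39 and 4.43 in wild type against 3.81 and 5.92 in the knockout. Ifi27l2a, Gadd45g, Tmem45b, Orm1 and Rbp4, the last a retinol carrier made by liver and fat, followed at 0.37 to 0.40.

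Around Ucp1, Cidea was nearer than any of the 2321 genes, at 0.40. The nearest other gene was Junb, an immediate-early transcription factor, at 0.84, which read 10.69 and 8.37 in wild type against 5.62 and 7.91 in the knockout. Cap1, Tmem178, Serpina1b, Serpina3n and Alas2 followed at 1.19 to 1.51. Slc2a4 was at 1.88, with 41 of those genes nearer, and Adipoq at 2.16, with 200 nearer. These distances rest on 4 arrays and carry no test.

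**Figure D4:**
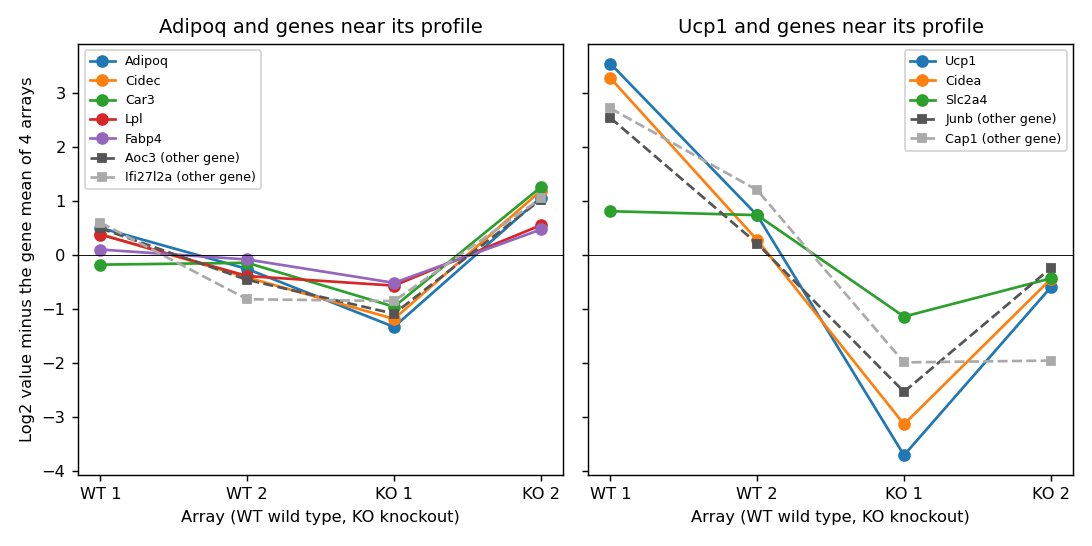
Log2 expression minus the gene's mean over the 4 arrays for Adipoq, Cidec, Car3, Lpl and Fabp4 (left) and Ucp1, Cidea and Slc2a4 (right), each with the 2 nearest other genes of Adipoq or Ucp1 as dashed lines. Lines only join the points of a gene. On the left knockout array 2 is the highest point of every gene shown, and on the right wild-type array 1 is.

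Further genes of white fat cells shared in part the low reading of knockout array 1. Of 18 genes listed, 17 had a probe set and 13 were tested. None of the 13 passed an unadjusted p of 0.05 between genotypes in limma. The log2 summed level of all 17 was 11.62 and 11.12 in wild type against 10.85 and 11.26 in the knockout. At least 2-fold higher on knockout array 2 than on knockout array 1 were 8 of the 17, beside 0.981% of all tested probe sets. Knockout array 1 was lowest for 10 of the 13, beside 23.2% of all tested probe sets. Retn, the resistin gene, read 6.48 and 5.87 in wild type against 5.83 and 8.03 in the knockout. Pck1, which feeds glycerol synthesis in fat cells, read 5.90 and 7.06 against 4.57 and 7.51, and Tmem45b 6.60 and 5.85 against 3.88 and 6.56.

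Nnat, the brightest gene of this list, went the other way within the knockout, at 9.57 on array 1 and 8.81 on array 2. So did Sncg and Cyp4b1, with differences of -0.62 and -0.49 (array 2 minus array 1). Lep, the leptin gene of white fat cells, lay at 2.30 on every array, and Aqp7, Itih1 and Lgals12 were below 4 on each. Pparg and Cebpa, the transcription factors that drive fat cell formation and named here after their values were seen, were 0.99 and 1.23 units higher on knockout array 2 than on knockout array 1.

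Further genes of brown fat cells did not all share the pattern of Ucp1 and Cidea. Of 20 genes listed, 18 had a probe set and 9 were tested, and none of the 9 passed an unadjusted p of 0.05 in limma. Below 4 on every array were 8 of the 18, among them Dio2, which activates thyroid hormone, Ppargc1a, a coactivator of mitochondrial genes, and Zic1 and Ebf2, transcription factors of the brown fat lineage. Prdm16, which directs brown fat fate, read 5.12 and 2.99 in wild type against 4.08 and 4.53 in the knockout. Elovl3, a fatty acid elongase, read 4.45 on wild-type array 1 and at most 2.33 elsewhere, and Pdk4, a brake on pyruvate oxidation, 6.08 and 7.55 against 4.81 and 6.57. Kcnk3, a potassium channel and the brightest gene of the list, spanned only 12.85 to 13.17.

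Cox8b, a subunit of cytochrome oxidase named after its values were seen, read 11.33 and 10.07 in wild type against 9.38 and 9.30 in the knockout. Its genotypes did not overlap (difference -1.36, SE 0.49, unadjusted p = 0.0532 in limma), but its knockout arrays lay 0.07 apart where those of Ucp1 lay 3.11 apart. At least 2-fold higher on wild-type array 1 than on wild-type array 2 were 5 of the 18 brown fat genes, beside 6.98% of all tested probe sets. Elovl3, 1 of these 5, did not enter the test. Only 1, Pdk4, was 2-fold higher on knockout array 2 than on knockout array 1, beside 0.981% of all tested probe sets.

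Enzymes that make, store and release fat are shared by fat cells and steroid-making cells. All 19 measured genes of this list were tested, and 1 of them passed an unadjusted p of 0.05 in limma, where 5.14% of all tested probe sets did. It was Elovl6, a fatty acid elongase (difference -1.32, SE 0.24, unadjusted p = 0.00637 in limma), and 0 passed the adjusted threshold. The median difference was -0.53, beside -0.04 for all tested probe sets. Fasn, the fatty acid synthase, read 10.80 and 9.52 in wild type against 8.93 and 10.06 in the knockout, and was the 1 gene of the list that was 2-fold higher on knockout array 2 than on knockout array 1. Thrsp, a lipogenic regulator, read 11.23 and 8.66 against 8.76 and 9.41, and Dgat2, which makes triglyceride, 8.08 and 5.91 against 5.56 and 6.52. Wild-type array 1 was the high array for both. On that array 7 of the 19 genes, Fasn, Thrsp and Dgat2 among them, were at least 2-fold higher than on wild-type array 2. Of all tested probe sets, 6.98% were. Knockout array 1 was lowest for 13 of the 19, beside 23.2% of all tested probe sets, and Me1, the brightest, spanned 13.57 to 13.72.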

How the data were processed

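RNA of 4 adrenal samples was measured on Affymetrix Mouse Genome 430 2.0 arrays. The authors made the deposited log2 values with GCRMA (per the submitters' processing notes) in Bioconductor 3.14 (per the labels' protocols), which corrects background by probe sequence, normalizes between arrays and summarises probe sets. The GCRMA version is not given in the sources used here, and the log2 scale was read from the values (2.30 to 14.9). Groups follow the genotype in the labels. The 64 control probe sets were left out. The genotype contrast was fitted in limma 3.58.1 (R 4.3.3; eBayes, 2 residual degrees of freedom) over all 17228 tested probe sets, and p-values were adjusted by Benjamini-Hochberg over that whole set. The fit was tested on simulated data. Gene names came from the platform annotation, where 34945 probe sets had 1 gene, 932 several and 9160 none. The brightest probe set by the mean of 4 arrays stood for a gene. A summed level is log2 of the sum of a list's linear values over the brightest probe set of each gene. Named are all members, the 6 genes nearest Adipoq and Ucp1, and list genes taken from the 3 of largest range and the brightest. Other named genes, such as Elovl6, Cox8b, Pparg, Cebpa, Sncg, Cyp4b1 and those below 4 on every array, were chosen after their values were seen. The members and the 12 gene lists (147 genes, 135 on the array) were chosen with earlier results of these data known. Promoter windows came from RefSeq (GRCm38.p6). The array number limits the precision. Alternatives were other filters, normalizations and variance models, gene means, a replicate block and each array left out.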

Additional observations from a re-analysis of the deposited data

How the results depend on the processing

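The adjusted call count was 0 under all alternatives run. At an unadjusted p of 0.05 in limma, the count of fat marker probe sets was 1 in the main setting, 2 with a filter at 6 log2 units, 3 with quantile normalization, 3 after centring the arrays, 2 under a variance trend, 1 unfiltered, and from 0 to 2 when 1 array was left out. The count of genes 2-fold apart was 3 to 5 leaving out each array. Genotype differences that changed sign ranged, with each array left out, from -1.45 to 0.94 for Adipoq, -0.53 to 0.46 for Fabp4, -1.17 to 1.20 for Cidec, -0.56 to 0.56 for Lpl and -0.80 to 1.42 for Car3, with Fabp4 at 0.094 as a mean of its probe sets and Lpl at 0.038 after quantile normalization. The sign for these genes thus depended on which arrays were used. For Fabp4 and Lpl, with main differences of -0.031 and -0.002, it also depended on the processing. The cause was not tested. Ucp1, Cidea and Slc2a4 kept a negative sign under every alternative run, at -5.85 to -2.74, -5.07 to -2.07 and -1.92 to -1.21 leaving out each array. A genotype left with 1 array borrows the spread of the other genotype. The median difference between the knockout arrays stayed at 2.24 to 2.30 and that between the wild-type arrays at -0.78 to -0.64. The labels do not say that replicate numbers pair the arrays. With the replicate number as a block, 1 probe set passed the unadjusted threshold, again Slc2a4 (-1.56), and the deviations of same-numbered arrays correlated at 0.154 across probe sets. Low signal near the floor limits Ucp1 and Cidea on knockout array 1.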

Other observations

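Lists of other cells in the gland gave these values. Among 8 lymphocyte markers measured, 6 were below 4 on every array, and Ighm, the heavy chain of IgM, read 8.85 and 5.98 in wild type against 9.65 and 9.39 in the knockout. Cd3e, of T cells, was at 2.37 to 2.71. All 8 kidney markers were below 4 on every array, with a log2 summed level of 5.46 to 5.52. Among macrophage markers, C1qb, a complement component, was lowest on wild-type array 1, at 6.31, and lay at 9.97 to 10.54 elsewhere. Dlk1, a gene of precursor and adrenal cells, read 12.79 and 11.55 in wild type against 12.46 and 11.71 in the knockout, and the stromal gene Dcn 10.55 and 9.65 against 8.79 and 9.41. Of the 8 tested genes in the list of stroma and fat cell precursors, 0 passed an unadjusted p of 0.05 in limma. In the medulla list 1 of 9 passed, Penk at -0.88, and in the cortex and endothelium lists 0 did, where 5.14% of all tested probe sets passed in either direction.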
